A study of Mus musculus with 6 samples.

Results

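The BCL2 family genes *Bcl2*, *Bcl2l1*, *Mcl1*, *Bax*, *Bak1*, *Bid*, *Bcl2l11*, *Bbc3*, *Pmaip1* and *Bad* were examined in bulk RNA-seq of mouse dorsal root ganglia (DRG) and neurofibroma tumors. The 10 genes were chosen by symbol, and all were among the 24062 genes listed in each count file and the 15652 genes with enough reads to be tested. The 6 libraries came from mice on a C57BL/6-I129 background, 3 labelled Nf1fl/fl;DhhCre with DRG as tissue and 3 labelled Rx1flfl;Rx3fl/fl;DhhCre with neurofibroma tumor as tissue. In both groups Cre is driven by the *Dhh* promoter and deletes floxed genes in Schwann cells (SCs) and their precursors, while other cells of the same tissue outside that lineage keep intact copies. The label of the second group leaves out *Nf1*, whereas the extraction protocol and the methods of the study give it as floxed for *Runx1*, *Runx3* and *Nf1*, and its libraries are called labelled DKO (double knockout) here. The labels give a different tissue for each genotype, whereas the methods of the study describe the tissue of both as DRG or tumors, so that genotype and labelled tissue cannot be told apart. The age of the mice is not given in the sources used here, and each library carries a number of its own, with no statement on whether tissue was pooled.

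BCL2 family proteins decide whether the outer membrane of the mitochondrion stays closed or releases cytochrome c, the step that commits a cell to intrinsic apoptosis. The anti-apoptotic members (BCL2, BCL-XL and MCL1) hold the effectors BAX and BAK in check, and the BH3-only members sense stress or loss of growth signals and either block the anti-apoptotic proteins or activate the effectors. In the Schwann cell lineage, survival depends on growth factor signals from axons and on autocrine loops, and the family sets the threshold below which a cell dies when those signals are lost. Much of its control is exerted on the proteins, by binding, phosphorylation, cleavage and degradation, which RNA counts do not measure.

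The libraries held 12439296 to 16682194 assigned reads, and 3 reads in the shallowest scaled library correspond to 0.247 CPM, the unit of counts scaled for library size and composition. *Runx1* was at 131, 141 and 172 CPM in the Nf1fl/fl;DhhCre libraries, compared with 84.0, 78.9 and 185 CPM in the labelled DKO libraries. Replicate 3 of the latter was thus above every Nf1fl/fl;DhhCre library. Gene counts of bulk tissue include cells outside the Schwann cell lineage, so they cannot show whether the deletion took place. *Runx2* was at 141, 131 and 118 CPM, compared with 52.8, 36.8 and 52.2 CPM. *Runx3* was at 19.9, 15.1 and 29.9 CPM, compared with 13.5, 10.3 and 12.1 CPM (log2 fold change -0.79, limma-voom adjusted p = 0.104), and *Nf1* at 273 to 334 CPM and 263 to 342 CPM. The label of labelled DKO replicate 3 names another sequencing run than the labels of the other 5 libraries. The animal numbers in the titles and in the tables are exchanged between labelled DKO replicates 2 and 3, and between Nf1fl/fl;DhhCre replicates 1 and 2, so that either labelled DKO library may be the one from the other run. Summed markers of skeletal muscle were at 20062 CPM in Nf1fl/fl;DhhCre replicate 2 and 51014 CPM in labelled DKO replicate 2, against 96.7 to 602 CPM in the other 4 libraries. Of 23 sensory neuron markers 21 rose and none fell, and their sum was 1999 to 3469 CPM in one genotype and 7589 to 16149 CPM in the other, so the neuron markers were higher in the libraries labelled as tumor than in those labelled as DRG. Of 15 macrophage markers 12 fell and none rose (sums of 1335 to 2568 CPM against 237 to 564 CPM), and of 8 fibroblast markers 6 fell and none rose (9267 to 9941 CPM against 3465 to 5687 CPM). The 8 general SC markers, *Sox10* and *S100b* among them, summed to 2053 to 2369 CPM and 2065 to 2711 CPM, and 3 of the 8 rose. Of all genes tested, 11.1% rose and 8.22% fell at a limma-voom adjusted p below 0.05. No marker of these 5 lists was without reads in all libraries. In bulk tissue, fewer cells of a type and less RNA per cell cannot be told apart.

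Expression of 4 of the 10 family members differed between the genotypes at an adjusted p-value below 0.05 (limma-voom with Benjamini-Hochberg adjustment over all genes tested). *Bcl2l11*, *Bak1* and *Mcl1* fell and *Bad* rose. The count fell to 1 (*Bcl2l11*) without Nf1fl/fl;DhhCre replicate 1 and to 2 (*Bcl2l11* and *Mcl1*) without Nf1fl/fl;DhhCre replicate 3, where 383 and 1203 genes passed in all, compared with 3017 with all libraries and 1192 without labelled DKO replicate 2. With all libraries 19.3% of all genes tested passed, 8.22% with a decrease and 11.1% with an increase. Only *Bcl2l11* and *Bad* also changed by more than 2-fold, which defines a differentially expressed gene (DEG) in the study and holds for 13.4% of all genes tested, 5.36% with a decrease and 8.03% with an increase. The estimates were below zero for 8 members and above zero for *Bad* and, with a sign that depended on the setting, *Bid*, with a median log2 fold change (log2FC) of -0.77 against 0.02 over all genes. In 7 members, the 3 values of one genotype lay wholly above the 3 of the other, which was the case for 42.3% of all genes tested. *Bad* was the higher one of these in the labelled DKO libraries (21.8% of all genes) and the other 6 were lower (20.5%). The 10 genes were chosen as a family and not at random, and these shares are given only as the background for the counts.

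**Figure D1:**
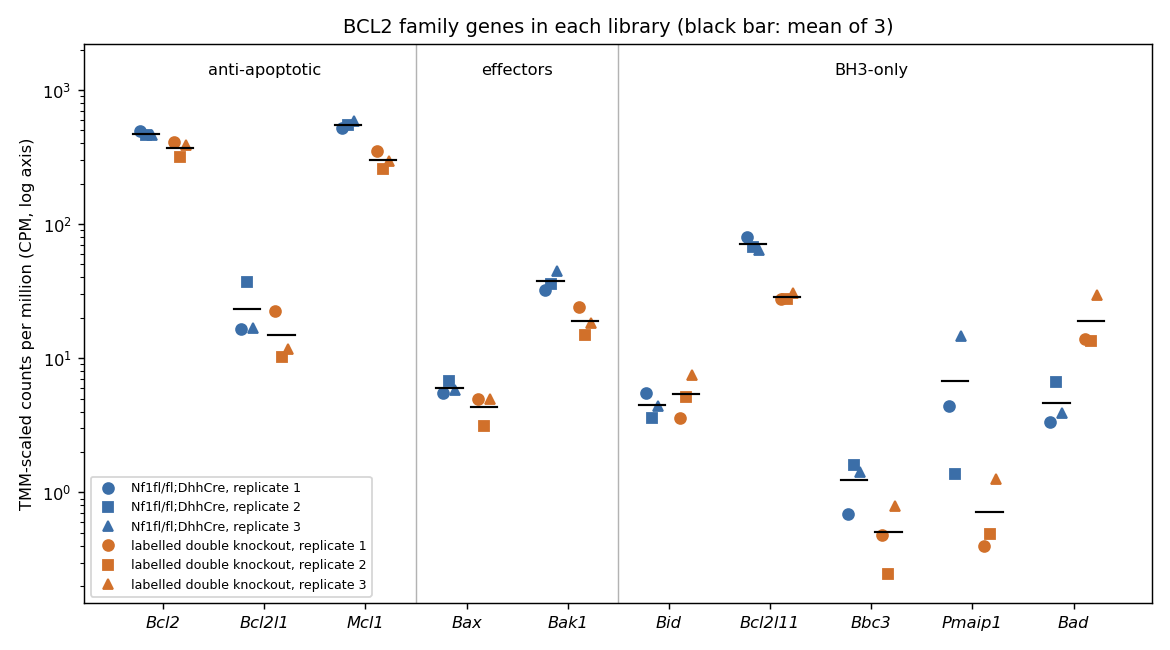
TMM-scaled CPM (log axis) of the 10 genes in each of the 6 libraries, grouped as anti-apoptotic, effector and BH3-only genes; blue points are Nf1fl/fl;DhhCre libraries, orange points the labelled DKO libraries, and black bars the mean of 3. *Mcl1*, *Bak1* and *Bcl2l11* are lower in every orange library, *Bad* is higher in every orange library, and *Pmaip1* spreads from 1.37 to 14.6 CPM within the blue libraries.

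Among the anti-apoptotic genes, *Mcl1* fell in the labelled DKO libraries, and the values of *Bcl2* and *Bcl2l1* did not pass the test. *Mcl1*, at chr3:95658788-95663176 (plus strand, GRCm38 like all positions here), encodes a short-lived protein that holds BAK and BIM. It was at 520, 551 and 584 CPM in the Nf1fl/fl;DhhCre libraries, compared with 352, 257 and 293 CPM in the labelled DKO libraries. The lowest value of the first group was above the highest of the second, by more than the range within either group. This gave a log2FC of -0.88 (SE 0.14, limma-voom adjusted p = 0.0116), a 1.85-fold decrease. With each library left out in turn it stayed between -0.96 and -0.78. Without labelled DKO replicate 3 or replicate 2, of which one may be the library of the other sequencing run, it was -0.87 (limma-voom adjusted p = 0.0269) and -0.78 (limma-voom adjusted p = 0.0357). It passed in 5 of these 6 fits, and without Nf1fl/fl;DhhCre replicate 1 the adjusted p was 0.0501 from limma-voom.

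*Bcl2*, the founding member of the family, lies at chr1:106538178-106714274 (minus strand). It was at 494, 460 and 461 CPM in the Nf1fl/fl;DhhCre libraries, compared with 412, 317 and 386 CPM in the labelled DKO libraries, again with no overlap. The log2FC of -0.35 (SE 0.13, 95% interval -0.65 to -0.05) had an adjusted p of 0.0970 from limma-voom, and it was not below 0.05 in any of the 8 other settings with all libraries or the 6 fits that left one out. *Bcl2l1* encodes BCL-XL and, by alternative splicing, a short pro-apoptotic form, whose reads the gene counts add together. Located at chr2:152780668-152831728 (minus strand), it was at 16.5, 36.9 and 16.9 CPM, compared with 22.5, 10.2 and 11.8 CPM. Its groups overlapped, with the highest value in the Nf1fl/fl;DhhCre library that was rich in muscle markers. Its log2FC was -0.66 (SE 0.42, 95% interval -1.65 to 0.32, limma-voom adjusted p = 0.303). Without that library it was -0.23.

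Of the effectors, which form the pore in the outer mitochondrial membrane, *Bak1* fell by a size close to 2-fold and *Bax* did not pass the test. *Bak1*, at chr17:27019810-27029009 (minus strand), was at 32.3, 35.5 and 45.0 CPM in the Nf1fl/fl;DhhCre libraries. In the labelled DKO libraries it was at 23.9, 14.9 and 18.3 CPM, each below all 3 of the other genotype. The log2FC was -0.99 (SE 0.22, limma-voom adjusted p = 0.0253), a 1.99-fold decrease. The call was kept without Nf1fl/fl;DhhCre replicate 2 or labelled DKO replicate 1. It was lost in the other 4 fits that left one library out. Over all 6 fits the log2FC ranged from -1.12 to -0.82, with adjusted p-values up to 0.0781 from limma-voom. Without labelled DKO replicate 3 it was -0.97 (limma-voom adjusted p = 0.0658), and without replicate 2 -0.84 (limma-voom adjusted p = 0.0781). *Ggnbp1*, which overlaps the exons of *Bak1* on the other strand, was at 2.15 to 5.59 CPM over the 6 libraries, and the library kit does not mark strand. *Bax*, at chr7:45461697-45466898 (minus strand), was low in both genotypes, at 5.48, 6.73 and 5.77 CPM, compared with 4.94, 3.12 and 4.95 CPM. These values did not overlap, and rested on 38 to 113 reads per library. This gave a log2FC of -0.48 (SE 0.29, 95% interval -1.15 to 0.19, limma-voom adjusted p = 0.278).

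The study deletes RUNX factors and gives TGTGG as the sequence of putative RUNX-binding sites in *Pmp22*. RefSeq promoters (GRCm38.p6) were taken from 250 bases before to 50 bases after each annotated start. The letters TGTGG were therefore searched on both strands of the promoters of 9 members, all but *Pmaip1*. TGTGG occurred in 7 of their 15 promoters (46.7%), compared with 55.9% of all 32851 promoters. The longer TGTGGT, which contains TGTGG, occurred in 1 of the 15 (6.67%), that of *Bak1*, compared with 16.8% of all promoters. The windows of *Mcl1*, *Bcl2l11*, *Bcl2* and *Bax* held neither. The stretches of the called members are shown to give the sequence behind these counts, 5′ to 3′ on the strand of the gene, with TGTGG or its reverse complement CCACA in capitals. They lie at chr17:27028834-27028858 for *Bak1*, where the match begins 221 bases before the annotated start, and at chr19:6941756-6941780 and chr19:6941832-6941856 for *Bad*, where the matches begin 95 and 19 bases before it.
Bak1: tgttgttgtcTGTGGtttgcttttc
Bad, distal: attcccaaatCCACAtcgcgttcgg
Bad, proximal: aaacttccgcCCACAaccaagatgg
The matches describe these windows only, and binding was not measured in these RNA libraries. The study measured RUNX1 binding by ChIP-seq in *Nf1*-deficient tumor cells. It reports only a small share of peaks close to start sites and a *Pmp22* peak far upstream of the start. Sites outside the windows were not searched here, so the windows without a match do not show whether RUNX factors bind these genes.

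Of the 10 members, the BH3-only genes held the decrease with the lowest adjusted p and the only increase past the test. *Bcl2l11* encodes BIM, which binds all anti-apoptotic members and is raised by FOXO factors and lowered by ERK signaling when growth factors act. It lies at chr2:128126038-128162547 (plus strand). It was at 80.0, 67.9 and 64.3 CPM in the Nf1fl/fl;DhhCre libraries, compared with 27.8, 27.5 and 30.4 CPM in the labelled DKO libraries. The second group was tight (28.6 ± 1.56 CPM, SD, n = 3), and its highest value was below 31 CPM while the lowest of the first was above 64 CPM. Its log2FC was -1.30 (SE 0.15, limma-voom adjusted p = 0.00764), a 2.46-fold decrease. *Bcl2l11* passed both thresholds in each of the 8 other settings with all libraries and in each of the 6 fits that left one out, with log2FCs from -1.38 to -1.18. Without labelled DKO replicate 3 it was -1.34 (limma-voom adjusted p = 0.0170), without labelled DKO replicate 2 it was -1.27 (limma-voom adjusted p = 0.0272), and without replicate 2 of both genotypes, a setting chosen after the muscle markers were seen, -1.28 (limma-voom adjusted p = 0.0198).

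*Bad*, whose product binds BCL2 and BCL-XL unless growth factor kinases phosphorylate it, rose. It lies at chr19:6941861-6951899 (plus strand). It was at 3.33, 6.61 and 3.91 CPM in the Nf1fl/fl;DhhCre libraries, compared with 14.0, 13.5 and 29.5 CPM in the labelled DKO libraries. The groups did not overlap, and labelled DKO replicate 3 was more than 2 times as high as its companions. The log2FC was 2.01 (SE 0.45, limma-voom adjusted p = 0.0258), a 4.03-fold increase. It was lost without Nf1fl/fl;DhhCre replicate 1 (1.85, limma-voom adjusted p = 0.0834) and without Nf1fl/fl;DhhCre replicate 3 (1.96, limma-voom adjusted p = 0.0737). Without labelled DKO replicate 3 it passed with the smallest change, 1.61 (limma-voom adjusted p = 0.0302), and without replicate 2 with 2.21 (limma-voom adjusted p = 0.0456). *Gpr137*, which shares 524 exonic bases with *Bad* on the opposite strand, was at 2.98 to 5.45 CPM and 6.50 to 8.21 CPM, below *Bad* in each labelled DKO library but above it in 2 of the 3 Nf1fl/fl;DhhCre libraries, and its log2FC of 0.79 did not pass (limma-voom adjusted p = 0.110). The sensory neuron markers moved with *Bad* across the libraries. Per 1000 CPM of their sum, *Bad* was at 1.51 to 1.96 CPM in the Nf1fl/fl;DhhCre libraries and 1.55 to 1.85 CPM in the labelled DKO libraries, so that the groups overlapped on this scale, which was chosen after the values were seen. Per 1000 CPM of general SC markers, whose sums overlapped between the genotypes, they did not, at 1.41 to 3.22 CPM and 5.20 to 10.9 CPM.

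The remaining BH3-only genes had few reads. *Pmaip1*, at chr18:66458533-66465565, encodes NOXA, a p53-induced protein that binds MCL1. It was at 4.44, 1.37 and 14.6 CPM in the Nf1fl/fl;DhhCre libraries, compared with 0.398, 0.493 and 1.25 CPM in the labelled DKO libraries. The groups did not overlap, but the first spread widely, from 23 to 228 reads. This gave a log2FC of -2.67 (SE 1.41, 95% interval -5.96 to 0.63, limma-voom adjusted p = 0.220). With DESeq2 it was -3.25 (DESeq2 adjusted p = 0.00128) and with the muscle score as covariate -2.51 (limma-voom adjusted p = 0.0419), while the other 6 settings with all libraries left it above 0.05. The log2FC was -1.76 without Nf1fl/fl;DhhCre replicate 3 and -3.51 without Nf1fl/fl;DhhCre replicate 2, and it did not pass in any of the 6 fits that left one library out. The library with the highest *Pmaip1* value also had the highest sums of macrophage markers (2568 CPM) and T cell markers (59.0 CPM, against 4.69 to 19.0 CPM in the others), and the part of these cells in the result was not tested.

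*Bbc3*, at chr7:16308393-16318205, encodes PUMA, the other main p53-induced member. It had 3 to 27 reads per library, at 0.694, 1.61 and 1.41 CPM, compared with 0.478, 0.247 and 0.792 CPM. The groups overlapped, and the log2FC of -1.25 had a 95% interval from -2.85 to 0.34 (limma-voom adjusted p = 0.233). *Bid*, at chr6:120891930-120916853, links death receptors to mitochondria once caspase-8 has cleaved its product. It was at 5.48, 3.57 and 4.43 CPM, compared with 3.59, 5.10 and 7.53 CPM, with overlapping groups and a log2FC of 0.26 (SE 0.36, 95% interval -0.57 to 1.10, limma-voom adjusted p = 0.638). Its sign was not stable, at -0.03 without labelled DKO replicate 3 and -0.00077 with sample quality weights. *Bid* shares 628 exonic bases with *Bcl2l13* on the opposite strand, which was at 29.8 to 74.9 CPM, so that reads of one may have been counted for the other.

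**Figure D2:**
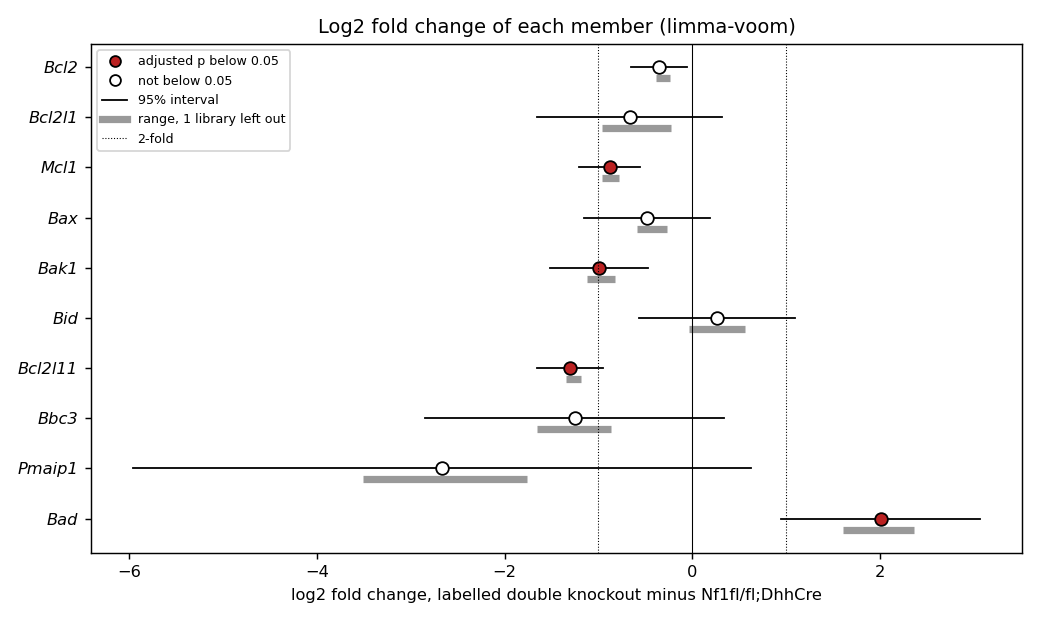
Log2FC of each gene, labelled DKO libraries minus Nf1fl/fl;DhhCre, with the 95% interval of the moderated fit (black line) and the range when any 1 of the 6 libraries was left out (grey bar); dotted lines mark 2-fold and red points an adjusted p below 0.05. *Bcl2l11* and *Mcl1* have short intervals away from zero, and *Pmaip1* has the largest estimate but an interval from -5.96 to 0.63.

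The balance of effector to anti-apoptotic transcripts was compared as log2 ratios. In each library log2 *Bax*/*Bcl2* lay between -6.45 and -5.99. Its mean was -6.19 ± 0.19 (SD, n = 3) in the Nf1fl/fl;DhhCre libraries and -6.28 ± 0.16 (SD, n = 3) in the labelled DKO libraries, a difference of -0.09 (exact permutation test over libraries, two-sided p = 0.5). Log2 *Bak1*/*Mcl1* was -3.87 ± 0.16 and -3.96 ± 0.11 (SD, n = 3 each), also a difference of -0.09 (exact permutation p = 0.6). The values of the genotypes overlapped in both ratios. Log2 *Bak1*/*Bcl2l1* was more variable, at 0.76 ± 0.74 and 0.41 ± 0.28 (SD, n = 3 each; exact permutation p = 0.5). The adjusted p was 0.6 for each of the 3 ratios, and the smallest p that 3 libraries against 3 can give by this test is 0.1, so it could not have passed 0.05. With each library left out the differences ranged from -0.18 to 0.0043 for *Bax*/*Bcl2* (the sign turned without Nf1fl/fl;DhhCre replicate 2), from -0.15 to 0.0012 for *Bak1*/*Mcl1* (without Nf1fl/fl;DhhCre replicate 3) and from -0.76 to -0.04 for *Bak1*/*Bcl2l1*. The ratios compare changes, not protein amounts, and are of counts not scaled by length.

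Levels of different genes were compared as CPM per kb of annotated exon. *Mcl1* was the most abundant member in both genotypes, at 161 ± 9.40 CPM per kb in the Nf1fl/fl;DhhCre libraries and 88.0 ± 14.1 CPM per kb (SD, n = 3 each) in the labelled DKO libraries. *Bcl2* followed at 51.5 ± 2.13 and 40.6 ± 5.35 CPM per kb (SD, n = 3 each). Both were separated from each other and from the next gene in each genotype. In the Nf1fl/fl;DhhCre libraries *Bak1* (15.6 ± 2.76 CPM per kb, SD, n = 3) and *Bcl2l11* (8.81 ± 1.03 CPM per kb, SD, n = 3) came next. *Bcl2l11* overlapped with *Bcl2l1*, and the values from *Bcl2l1* over *Bax*, *Pmaip1* and *Bad* to *Bid* overlapped from one neighbor to the next. *Bbc3* was lowest, at 0.583 ± 0.227 CPM per kb (SD, n = 3). *Bad* moved from rank 8 in the Nf1fl/fl;DhhCre libraries (1.81 ± 0.685 CPM per kb) to rank 4 in the labelled DKO libraries (7.43 ± 3.56 CPM per kb, SD, n = 3 each), where it overlapped with *Bak1* and lay above *Bcl2l11*. *Bak1* was more abundant than *Bax* in each of the 6 libraries, at 13.4 to 18.7 against 3.48 to 4.27 CPM per kb in the Nf1fl/fl;DhhCre libraries.

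**Figure D3:**
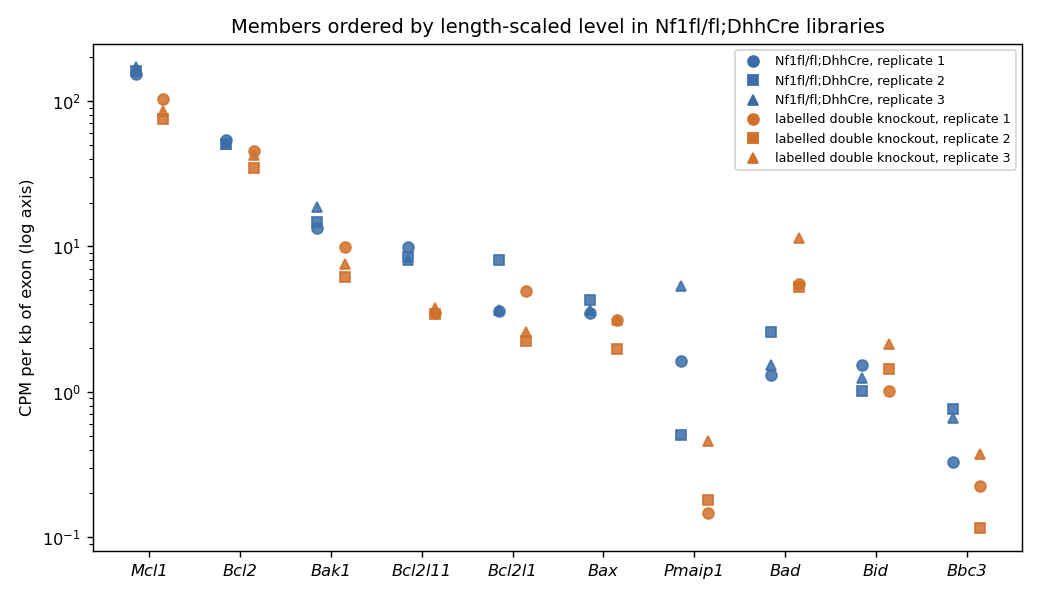
CPM per kb of exon (log axis) for each library, genes ordered by their mean in the Nf1fl/fl;DhhCre libraries (blue) with the labelled DKO libraries in orange. *Mcl1* and *Bcl2* lead in both genotypes, and *Bad* is the only gene whose orange points lie wholly above its blue ones.

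For the 4 called members, the 3 tested genes with the most similar profile were found, as the smallest root mean square difference of mean-centred log2 CPM over the 6 libraries. For *Bad* these were *Asic2* (0.07), which encodes an acid-sensing ion channel of neurons, *Rtn4r* (0.08), the Nogo receptor of axons, and *Dgkh* (0.11), a diacylglycerol kinase. For *Bcl2l11* they were *Foxc2* (0.07), a forkhead transcription factor, *Hes1* (0.11), a Notch target, and *Alpk1* (0.11), a kinase. For *Bak1* they were *Ptgis* (0.07), prostacyclin synthase, *Itpripl1* (0.07) and *Ucp2* (0.08), a mitochondrial carrier. For *Mcl1* they were *Kank4* (0.05), *Igsf10* (0.06) and *Phxr4* (0.07). The likeness includes the difference between genotypes by which these members were called.

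The rest of the apoptosis machinery was described from lists of symbols. As background for the counts in each list, 8.22% of all genes tested fell and 11.1% rose. Of 13 other BCL2 family genes, 8 were tested, 1 rose and 1 fell, with a median log2FC of 0.10. *Bmf*, a BH3-only gene released from the cytoskeleton under stress, was at 19.4, 29.0 and 18.8 CPM, compared with 9.24, 7.65 and 6.87 CPM, a log2FC of -1.49 (SE 0.27, limma-voom adjusted p = 0.0147). With *Bcl2l11* it was thus the second BH3-only gene among the DEGs with a decrease. *Bcl2l13*, named after its values were seen, rose by a log2FC of 0.80 (limma-voom adjusted p = 0.0376). *Bcl2l2*, which encodes the anti-apoptotic BCL-W of neurons, was at 71.3 to 86.7 CPM and 97.6 to 107 CPM and did not pass (0.40, limma-voom adjusted p = 0.0703).

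The apoptosome and caspase list also holds *Casp8*, whose product acts upstream of the mitochondrion through *Bid*. Of the 12 genes in the list 11 were tested, of which 3 fell and 1 rose. Their median log2FC was -0.66, and of all genes tested 8.22% fell and 11.1% rose. *Casp8*, the initiator caspase of death receptors, was at 73.2, 52.6 and 89.2 CPM, compared with 37.7, 22.4 and 20.0 CPM (log2FC -1.45, SE 0.29, limma-voom adjusted p = 0.0191). *Apaf1*, the scaffold that activates caspase-9, fell by 1.13 on the log2 scale (SE 0.20, limma-voom adjusted p = 0.0147). *Cycs*, which encodes cytochrome c, a carrier of the respiratory chain as well as the trigger of the apoptosome, rose 2.65-fold (limma-voom adjusted p = 0.0467), from 99.6, 78.8 and 90.2 CPM to 256, 406 and 128 CPM. Its highest value was in the library with the most muscle marker reads. *Casp9*, the initiator caspase of the apoptosome, averaged 19.3 ± 2.05 CPM and 18.9 ± 5.36 CPM (± SD, n = 3 each).

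Of the 5 genes of inhibitor of apoptosis proteins (IAPs), which block caspases or death receptor signals, 2 fell and 3 did not pass. Their median log2FC was -0.16, and of all genes tested 8.22% fell and 11.1% rose. *Birc3* averaged 59.8 ± 9.40 CPM and 31.3 ± 3.91 CPM (± SD, n = 3 each), a log2FC of -0.93 (limma-voom adjusted p = 0.0172). *Xiap*, the direct caspase inhibitor, averaged 222 ± 9.87 CPM and 216 ± 9.32 CPM (± SD, n = 3 each). In the death receptor list 3 of 8 genes tested fell and none rose, with a median of -0.38. *Tnfrsf1a*, a TNF receptor, was the only DEG among them (-1.19, SE 0.19, limma-voom adjusted p = 0.0116). The other 2, named after their values were seen, were *Cflar*, the inhibitor of caspase-8 (-0.68, limma-voom adjusted p = 0.0208), and the kinase gene *Ripk1* (-0.67, limma-voom adjusted p = 0.0479).

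In the p53 list, which holds regulators of *Bbc3* and *Pmaip1* and their fellow targets, 4 of 13 genes tested fell and none rose. Its median log2FC was -0.36, and of all genes tested 8.22% fell and 11.1% rose. *Eda2r*, a TNF receptor family gene, had the largest decrease, from 33.4, 29.6 and 32.5 CPM to 8.53, 7.57 and 5.94 CPM (log2FC -2.14, limma-voom adjusted p = 0.00598). *Trp53inp1* fell by 1.08 on the log2 scale (limma-voom adjusted p = 0.0240). *Trp53* itself, named after its values were seen, averaged 73.7 ± 6.39 CPM and 45.6 ± 10.3 CPM (± SD, n = 3 each; -0.71, limma-voom adjusted p = 0.0394), and *Cdkn1a*, its best-known target, did not pass (-0.36, limma-voom adjusted p = 0.150). Of 8 other transcription factor genes tied to BH3-only genes only *Jun* fell (-0.52, limma-voom adjusted p = 0.0324), with a median of -0.13 over the list. *Foxo3*, an inducer of *Bcl2l11*, was at 69.8 to 97.8 CPM and 50.9 to 61.4 CPM and did not pass (-0.49, limma-voom adjusted p = 0.0859). Among 6 genes of mitochondrial channels and BNIP proteins, *Bnip3*, a hypoxia-induced mitophagy receptor, rose (27.2 ± 3.10 CPM to 78.7 ± 20.0 CPM, SD, n = 3 each; log2FC 1.49, limma-voom adjusted p = 0.0115), *Bnip2* fell and 4 did not pass.

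**Figure D4:**
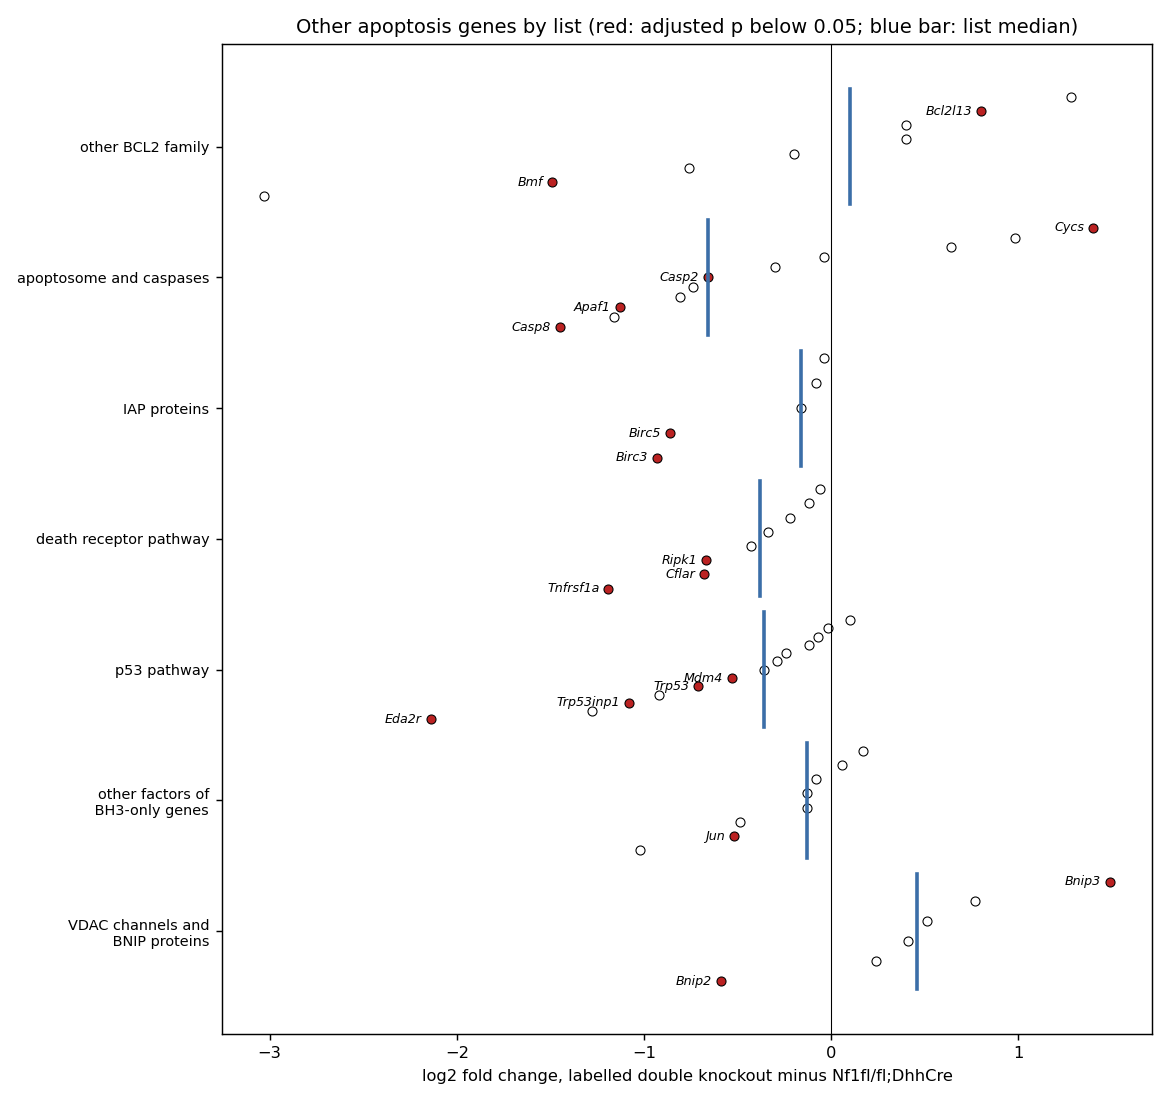
Log2FC (labelled DKO libraries minus Nf1fl/fl;DhhCre) of each tested gene in 7 lists of other apoptosis genes, with red points for an adjusted p below 0.05 and a blue bar for the list median. The red points of the IAP, death receptor, p53 and other factor lists all lie below zero, and *Cycs*, *Bnip3* and *Bcl2l13* are the red points above it.

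The 4 called members were set beside the summed markers, because neuron, macrophage and fibroblast markers differed in the same libraries. The general SC sums overlapped between the genotypes, so dividing by them changes the separation of the groups little. Per 1000 CPM of general SC markers, the groups stayed apart for *Bcl2l11* (30.6 to 33.8 CPM against 10.3 to 13.3 CPM). They also did for *Mcl1* (219 to 278 CPM against 108 to 131 CPM) and *Bak1* (13.6 to 21.5 CPM against 6.75 to 8.86 CPM). Per 1000 CPM of fibroblast markers *Bcl2l11* overlapped (6.66 to 8.64 CPM and 4.89 to 7.95 CPM), as did *Bak1* (3.48 to 4.66 CPM and 4.20 to 4.74 CPM), and *Mcl1* was higher in the labelled DKO libraries (55.4 to 60.5 CPM and 62.0 to 76.0 CPM). Per 1000 CPM of macrophage markers *Bak1* and *Mcl1* were higher in those libraries and *Bcl2l11* overlapped (25.0 to 50.8 CPM and 49.3 to 116 CPM). *Bad* was higher in the labelled DKO libraries per 1000 CPM of fibroblast markers (0.359 to 0.665 CPM and 2.47 to 7.65 CPM) and of macrophage markers (1.52 to 4.95 CPM and 24.9 to 62.6 CPM). Per 1000 CPM of sensory neuron markers *Bcl2l11* (19.6 to 36.3 CPM and 1.88 to 3.66 CPM), *Bak1* (10.2 to 22.5 CPM and 1.13 to 3.15 CPM) and *Mcl1* (159 to 292 CPM and 18.1 to 46.4 CPM) were lower there. All 4 overlapped per 1000 CPM of skeletal muscle markers. The neuron, macrophage and fibroblast sums themselves differed between the genotypes, so the direction on those scales follows in large part from the divisor. These scales were chosen after the values were seen, and the part of each cell type in the changes was not tested.

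**Figure D5:**
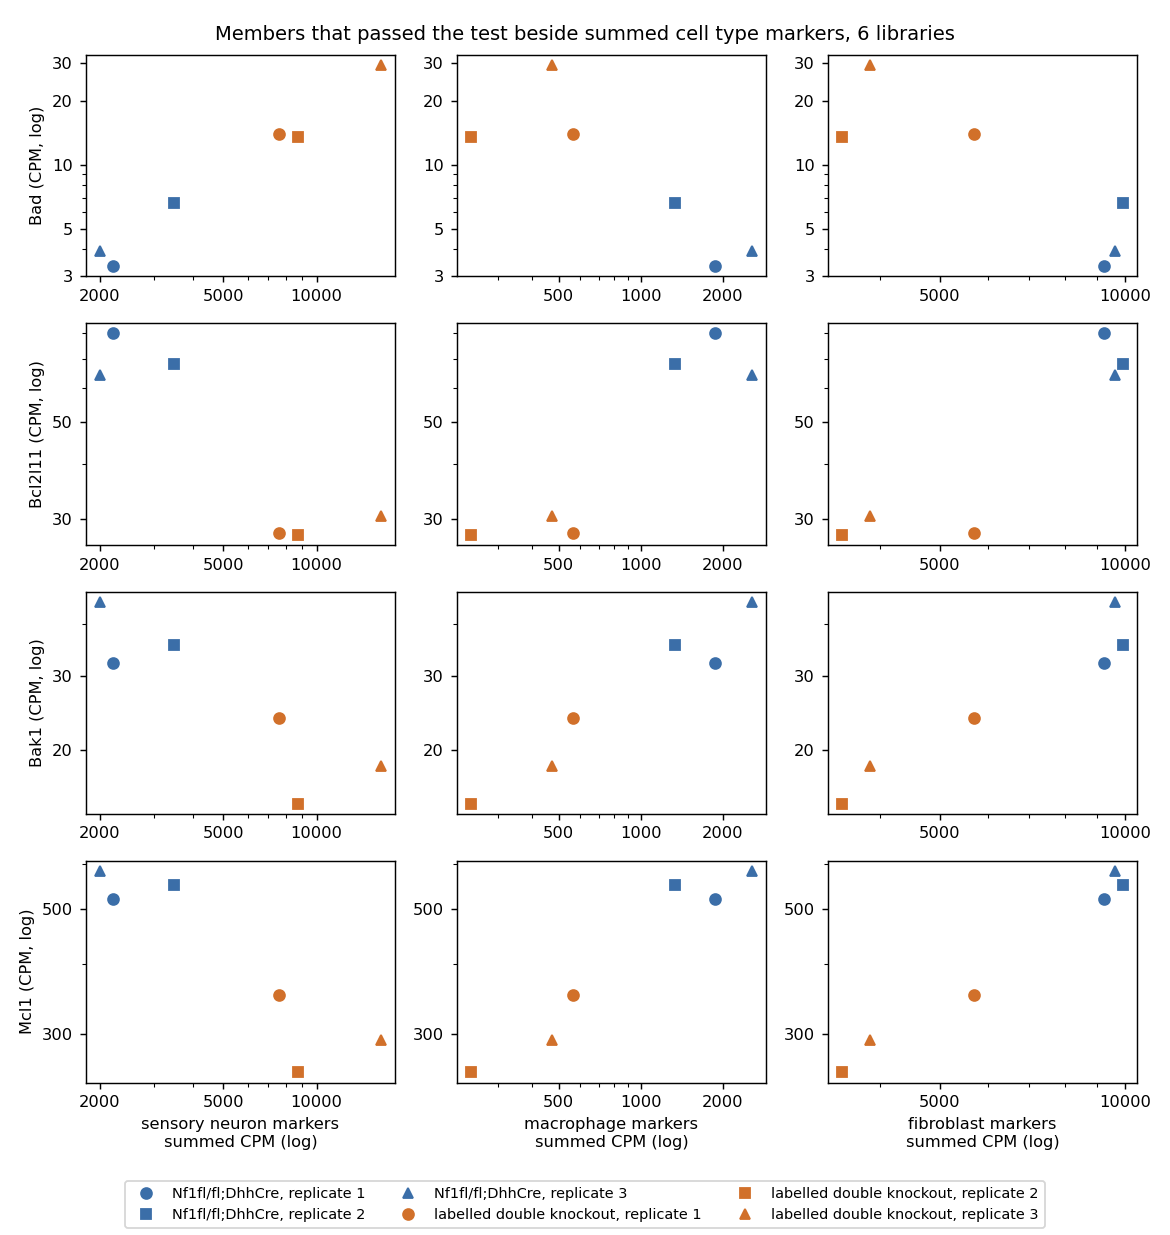
CPM of *Bad*, *Bcl2l11*, *Bak1* and *Mcl1* (rows, log axes) against the summed CPM of sensory neuron, macrophage and fibroblast markers (columns, log axes) in the 6 libraries, blue for Nf1fl/fl;DhhCre and orange for labelled DKO. *Bad* is highest in the library with the highest neuron sum, 16149 CPM, and the 2 genotypes are apart on every axis.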

How the data were processed

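The authors amplified total RNA with the NuGEN Ovation system, prepared Nextera XT libraries, aligned paired-end reads to mm10 with TopHat and counted reads per gene with featureCounts. They deposited the counts, not normalized. The annotation, the strand setting and the treatment of reads shared by genes are not given in the sources used here. Replicates were numbered in accession order and pair no mice. Between libraries of a genotype, chi-square over degrees of freedom was 22.5 to 141, so none was a copy.

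Low genes were removed by filterByExpr of edgeR 4.0.16 (settings of 10 reads per library and 15 in total). TMM factors were then computed and the counts fitted with limma-voom (limma 3.58.1, R 4.3.3), as in the study's methods, with genotype as the only term. DEGs had an adjusted p-value below 0.05 and more than 2-fold change. They numbered 2096, fewer than the study reports at the same thresholds, and the cause was not tested. CPM are counts divided by TMM-scaled library totals, and log2 ratios used a prior count of 0.5. SEs are those of the moderated fit. Libraries carry separate animal numbers, but pooling and litters are not stated, and p-values measure the spread between these libraries. Positions and exon lengths are from GENCODE M21 (GRCm38), of the same build as mm10, and promoters from RefSeq.

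Named genes were all members, the DEGs of each list (the 4 largest, or the gene with the lowest p where there were none) and the 3 nearest profiles of called members. Other genes of the lists, *Casp9*, *Xiap*, *Cdkn1a*, *Foxo3*, *Bcl2l2* and *Hrk* among them, were named after their values were seen. Members and lists were chosen with earlier results of these data known. *Adgre1* was matched by its older symbol, and *Ly6g* was not matched. The alternatives comprised DESeq2 1.42.0, quasi-likelihood fits of edgeR, DESeq2 size factors, library size only, 2 other filters, sample quality weights, a muscle score as covariate and leaving out each library.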

Additional observations from a re-analysis of the deposited data

How the results depend on the processing

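Over the 8 other settings with all 6 libraries, *Mcl1*, *Bak1*, *Bcl2l11* and *Bad* kept their direction and an adjusted p below 0.05. In these settings 2 or 3 members passed both thresholds, always with *Bcl2l11* and *Bad* among them. *Bak1* joined them with DESeq2 size factors, library size only or no filter, and *Pmaip1* with DESeq2 or the muscle score covariate. *Bbc3* was removed by the filter of CPM above 1. With DESeq2, 4574 genes passed the adjusted p, where limma-voom gave 3017; the cause was not tested. With each library left out, the number of DEGs ranged from 362 to 2285, the genes past the adjusted p from 383 to 3006, the members past both thresholds from 1 to 3, and the members past the adjusted p from 1 (*Bcl2l11*, without Nf1fl/fl;DhhCre replicate 1, which also gave the lowest gene counts) to 4. Without Nf1fl/fl;DhhCre replicate 3, *Bcl2l11* and *Mcl1* passed. In the same fits the difference in log2 *Bax*/*Bcl2* ranged from -0.18 to 0.0043, in log2 *Bak1*/*Mcl1* from -0.15 to 0.0012 and in log2 *Bak1*/*Bcl2l1* from -0.76 to -0.04. *Bid*, never past the threshold, changed sign with sample quality weights (-0.00077) and without labelled DKO replicate 3 (-0.03; from there to 0.56 with each library left out), and the median of the general SC markers was 0.03, or -0.05 by library size only. Without replicate 2 of both genotypes, chosen after seeing the data, *Bad*, *Bcl2l11* and *Mcl1* passed and *Bak1* did not (-0.87, limma-voom adjusted p = 0.0934). No paired analysis was run, because the labels state no pairing between mice of the 2 genotypes. The intervals of *Bbc3*, *Pmaip1*, *Bax* and *Bid*, which had few reads in some libraries, include changes of more than 2-fold in at least one direction.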

Other observations

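The *Bcl2a1* paralogs, anti-apoptotic genes of leukocytes, had fewer reads in each labelled DKO library than in any Nf1fl/fl;DhhCre library. Of all genes tested, 20.5% were lower without overlap in CPM. Summed macrophage markers were also lower in the labelled DKO libraries (1335 to 2568 CPM against 237 to 564 CPM), and their part was not tested. *Bcl2a1b* was at 2.43, 1.13 and 7.57 CPM in the Nf1fl/fl;DhhCre libraries, compared with 0.319, 0.0822 and 0.726 CPM in the labelled DKO libraries (log2FC -3.03, SE 1.31, limma-voom adjusted p = 0.146). *Bcl2a1a* (0.298 to 1.15 CPM against 0 to 0.159 CPM) and *Bcl2a1d* (0.596 to 1.73 CPM against 0 to 0.264 CPM) had too few reads to be tested. Counts of these near-identical copies are uncertain, since they share reads. *Bcl2l10*, *Bik*, *Bcl2l14*, *Endog* and *Fasl* also had too few reads to be tested, and *Trp73* had none in any library. *Hrk*, a BH3-only gene of neurons named after its values were seen, was at 5.06 CPM in Nf1fl/fl;DhhCre replicate 2 and at 0.898 to 1.65 CPM in the other 5 libraries.

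Of the other marker lists, 8 of 10 genes of myelinating SCs rose and none fell, with a median log2FC of 1.41. Over all genes tested 11.1% rose and 8.22% fell. T cell (7 tested, median -1.98), B cell (4, 0.11), mast cell (7, -0.75), endothelial (8, 0.49) and skeletal muscle (12, 1.12) lists had no gene past the adjusted p in limma-voom, and 1 of 4 neutrophil markers fell.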
